A study of Mus musculus with 9 samples.

Results

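The Eph receptors and ephrins described here are 9 genes of the 50600 in the deposited tables. They were chosen by symbol under the heading of cell sorting along the intestinal crypt and villus. A part of each gene in that sorting was not tested. They are 6 receptor genes (Ephb2, Ephb3, Ephb4, Ephb6, Epha1 and Epha2) and 3 ligand genes (Efnb1, Efnb2 and Efna1). Each was found once in both tables. The other 13 Eph and ephrin genes of the annotation are given beside them for context.

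Eph receptors are tyrosine kinases that bind ephrins on the surface of neighbouring cells, so that signalling needs cell contact and often ends in repulsion. In the small intestine, EphB2 and EphB3 are made by stem, Paneth and other crypt cells under Wnt control, and B-type ephrins by the differentiated cells above them. This opposed pattern keeps crypt cells in place, and EphB levels are known to change as intestinal tumours progress.

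RNA-sequencing of polyadenylated RNA was performed on 9 mouse libraries in 3 groups of 3. Wild-type (WT) organoids, which are epithelial cultures grown from small intestine of C57BL/6 mice, were kept for 24 hr in a mix of conditioned medium (cM) and double-strength organoid medium. The cM came from tumoroids (T-cM) or from other WT organoids (WT-cM). Tumoroids, the corresponding cultures of intestinal tumour cells, came from Apc1638N/+ mice of mixed strain (MIX in the labels) and were untreated.

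The titles and the treatment fields of the 6 organoid libraries name opposite media, so the groups are named by title, as T-cM-titled or WT-cM-titled organoids, and each direction between them turns round if the treatment field is right. The study's methods give donors of 2 to 5 months for WT organoids and of more than 6 months for tumours, and state that all its mice were of mixed background. They also give a medium with EGF, Noggin and R-spondin1 for WT organoids and one without R-spondin1 for tumoroids, while the labels list R-spondin1 for every library. Genotype, tumour origin, strain, donor age and medium therefore cannot be told apart in the tumoroid comparison. Apc1638N is a germline truncating allele, and tumour cells of such mice commonly lose the WT copy, whose state in these tumoroids was not analysed here.

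The libraries held from 16541635 to 25170966 counted reads. A count of 3, taken as the detection floor, was worth 0.103 to 0.204 CPM (counts scaled to a common library size, here on library sizes normalised by the TMM method). These reads carry no molecular identifiers, so floors and intervals cover counting error only. Each interval of a ratio takes the organoid reads as 1 pooled count and holds the tumoroid mean fixed. The epithelial markers Epcam and Cdh1 were high in all libraries and did not differ past the threshold in tumoroids, where Vil1 (log2 fold change -2.15), Cdx1 (-1.44) and Krt8 (-0.75) were lower. The 7 fibroblast markers summed to at most 2.47 CPM and the 6 endothelial markers to at most 3.85 CPM, with Col3a1, Lum, Kdr and Emcn at 0 in every library. The immune markers reached 21.6 CPM in tumoroid replicate 2 (mostly Csf1r, with Cd3e at 0) and the muscle markers 46.1 CPM in tumoroid replicate 3 (mostly Acta2). In these bulk samples fewer cells of a type and less RNA per cell cannot be told apart.

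The tumoroid comparison asked how tumour-derived epithelium differed from WT organoids in this contact system. Of the 9 genes, 5 were higher in tumoroids (Ephb2, Ephb3, Ephb4, Ephb6 and Epha2), 3 were lower (Epha1, Efnb1 and Efnb2), and Efna1 did not pass the test. The calls are edgeR quasi-likelihood tests of tumoroids against the mean of both organoid groups, at an adjusted p under 0.05. Among all 16208 genes tested, 29.6% were higher and 20.8% lower by this rule. With an absolute log2 fold change above 1 added, 3 of the 9 genes were higher (Ephb3, Ephb6 and Epha2) and 2 lower (Epha1 and Efnb2), beside 21% and 12.1% of all genes. Every tumoroid library lay above every organoid library for 3 genes (Ephb3, Ephb6 and Epha2) and below it for 3 (Epha1, Efnb1 and Efnb2), beside 25.6% and 20.2% of all genes. The fit takes the 6 organoid libraries as separate samples. With same-numbered organoid libraries summed, Ephb2 (adjusted p = 0.16) and Ephb4 (0.056) lost their calls, which left 3 genes higher. The median log2 fold change of the 9 was 0.69, against 0.16 over all genes tested. Ephb6 was tested only because of its tumoroid values. It is counted as higher in each count above and enters this median, so these values rest partly on a gene that had to be higher.

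**Figure D1:**
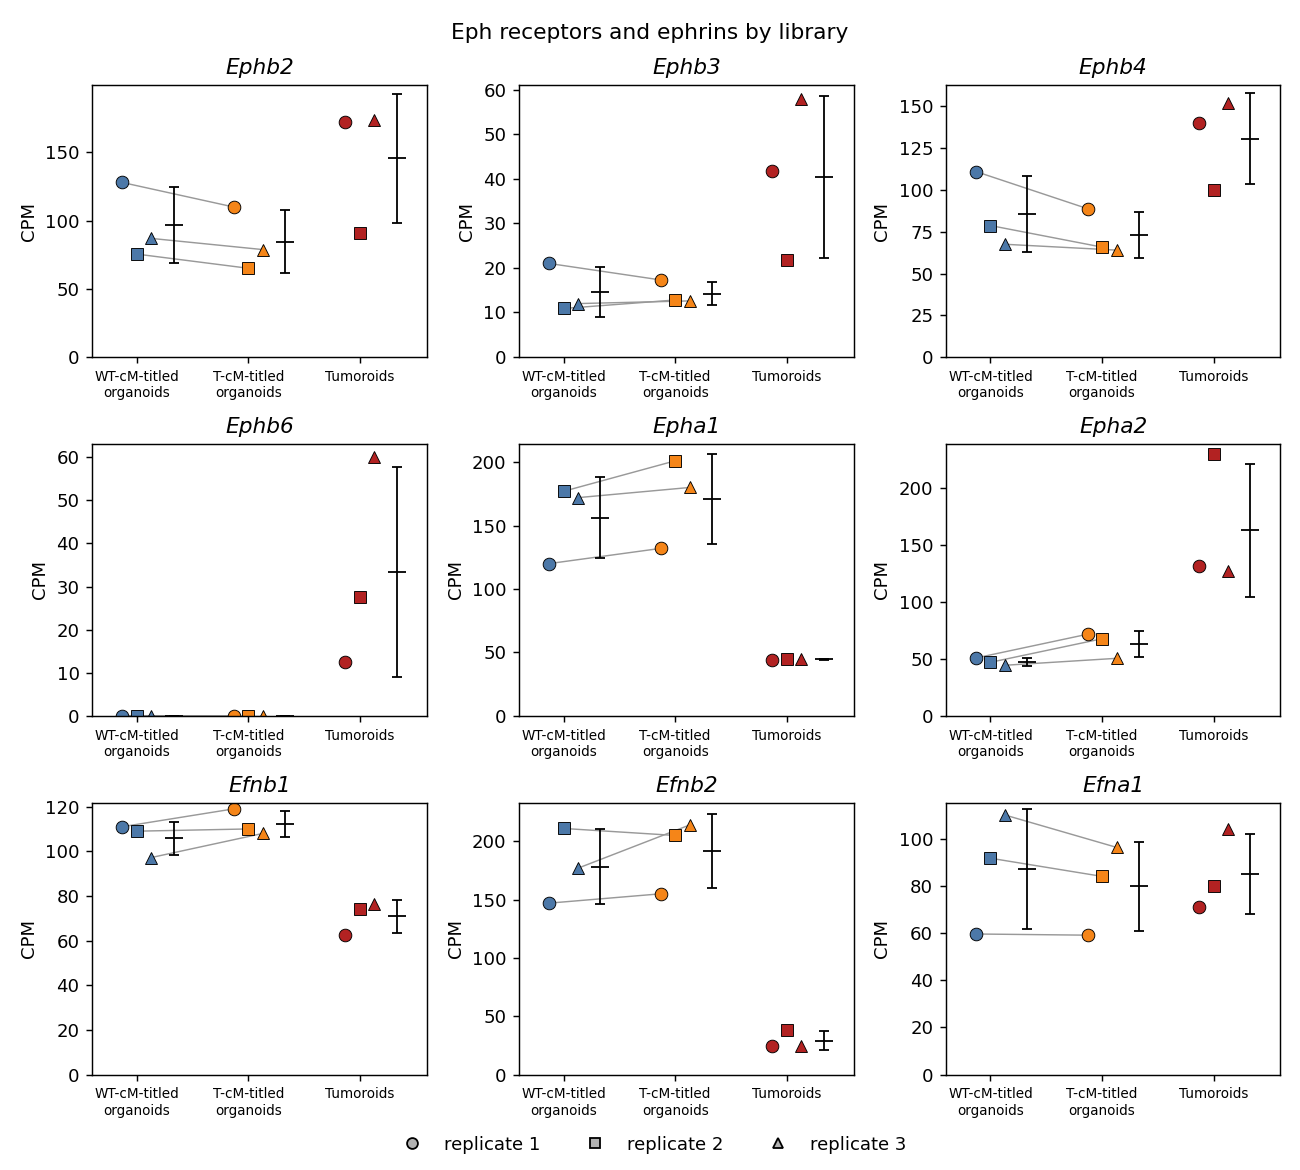
Expression of the 9 genes in each library in CPM (y axis from 0), with WT-cM-titled organoids in blue, T-cM-titled organoids in orange and tumoroids in red; shapes give the replicate number, grey lines join organoid libraries of the same number, and bars show mean ± SD (n = 3). Ephb6 lies near 0 in all organoids, Epha1 and Efnb2 are lower in all 3 tumoroids, and the groups overlap for Efna1.

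Among the B-type receptors, Ephb2, a Wnt-responsive receptor of crypt cells, had 110, 65.1 and 78.8 CPM in T-cM-titled organoids of replicates 1, 2 and 3. It had 128, 75.5 and 87.0 CPM in WT-cM-titled organoids and 172, 91.3 and 174 CPM in tumoroids. Tumoroid replicate 2 lay below both organoid libraries of replicate 1, so the groups overlapped. The mean was 146 ± 47.1 CPM in tumoroids (SD, n = 3), with 84.6 ± 22.9 and 96.9 ± 27.7 CPM in T-cM-titled and the WT-cM-titled organoids (SD, n = 3 each). The log2 fold change of 0.69 (SE 0.25, adjusted p = 0.046) was close to the threshold. The call was lost without tumoroid replicate 1 (adjusted p = 0.16) or 3 (0.15), and without the organoid libraries of replicate 2 (0.18) or 3 (0.15).

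Ephb3, which acts with EphB2 in crypt cells and in the placing of Paneth cells, had 17.3, 12.8 and 12.6 CPM in T-cM-titled organoids. WT-cM-titled organoids had 21, 10.9 and 12 CPM, and tumoroids 41.7, 21.7 and 57.9 CPM. The lowest tumoroid was just above the highest organoid library. The means were 40.4 ± 18.1 CPM in tumoroids and 14.2 ± 2.66 and 14.7 ± 5.54 CPM in T-cM-titled and the WT-cM-titled organoids (SD, n = 3 each), for a log2 fold change of 1.48 (SE 0.30, adjusted p = 0.0027).

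Ephb4, the receptor that prefers ephrin-B2 and is best known from blood vessels, had 88.8, 65.8 and 64.0 CPM in T-cM-titled organoids. WT-cM-titled organoids had 111, 78.7 and 67.5 CPM, and tumoroids 140, 100 and 152 CPM. As for Ephb2, tumoroid replicate 2 was the lowest tumoroid and lay below an organoid library of replicate 1. The means were 131 ± 27.1 CPM in tumoroids, 72.9 ± 13.8 in T-cM-titled and 85.7 ± 22.5 in the WT-cM-titled organoids (SD, n = 3 each), with a log2 fold change of 0.72 (SE 0.20, adjusted p = 0.012). This call was lost without the organoid libraries of replicate 2 (adjusted p = 0.069) or 3 (0.056). The exons of Ephb4 overlap those of Zan on the opposite strand. Zan itself had few reads (1315 against 18817 for Ephb4 over the 9 libraries) and was also higher in tumoroids (log2 fold change 0.94, adjusted p = 0.017), and the strand setting of the counting is not given in the sources used here.

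Ephb6, a family member without kinase activity, was close to absent from organoids. The T-cM-titled libraries had no read and the WT-cM-titled libraries had 1, 0 and 0 reads. Tumoroids had 275, 739 and 1750 reads, or 12.5, 27.5 and 60.1 CPM. The tumoroid mean of 33.3 ± 24.4 CPM (SD, n = 3) was at least 188-fold higher than the T-cM-titled organoids, set at the floor of 3 counts per library. The lowest tumoroid was 70.4-fold above that floor. Against the 1 read of all 6 organoid libraries the ratio was 3620, with a 95% exact Poisson interval of 650 to 143000. That interval covers the organoid count alone and leaves out the spread among tumoroids. The adjusted p was 2.2e-05. Ephb6 passed the filter on low values through tumoroids alone, so a difference was a condition of its being tested. Among tumoroids, replicate 3 was well above replicate 1.

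The A-type receptors moved in opposite directions. Epha1, an epithelial receptor, had 132, 201 and 180 CPM in T-cM-titled organoids, 120, 177 and 172 CPM in WT-cM-titled organoids, and 44.4, 45.0 and 44.8 CPM in tumoroids. The tumoroid libraries hardly differed among themselves and all lay far below the lowest organoid. With means of 44.7 ± 0.308, 171 ± 35.3 and 156 ± 31.5 CPM in tumoroids, T-cM-titled and the WT-cM-titled organoids (SD, n = 3 each), Epha1 was 3.66-fold lower (log2 fold change -1.87, SE 0.18, adjusted p = 3.3e-05). Its exons overlap those of Zyx on the opposite strand, which had a comparable number of reads (16713 against 21133) and a smaller change (-0.56, adjusted p = 0.0072). What share of either gene's reads comes from the overlap was not tested.

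Epha2, a receptor of many epithelia and carcinomas, had 71.8, 67.8 and 50.6 CPM in T-cM-titled organoids and 50.9, 47.1 and 44.5 CPM in WT-cM-titled organoids. Tumoroids had 132, 230 and 127 CPM, all above the organoids. Here tumoroid replicate 2 was the highest, the reverse of its place for Ephb2, Ephb3 and Ephb4. The means were 163 ± 58.3 CPM in tumoroids, 63.4 ± 11.3 in T-cM-titled and 47.5 ± 3.24 in the WT-cM-titled organoids (SD, n = 3 each). The 2.97-fold difference had a log2 value of 1.57 (SE 0.20, adjusted p = 0.00014). Epha2 therefore took over from Epha1 as the leading A-type receptor by level. In TPM (the deposited measure of transcripts, in which counts are divided by gene length), the ratio of Epha1 to Epha2 was between 2.19 and 4.61 in organoids and between 0.232 and 0.420 in tumoroids.

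Both B-type ligands were lower in tumoroids. Efnb2, an ephrin of differentiated epithelium and of arteries, had 155, 205 and 214 CPM in T-cM-titled organoids, 147, 211 and 177 CPM in WT-cM-titled organoids, and 25, 38.5 and 24.2 CPM in tumoroids. The highest tumoroid was far below the lowest organoid. Efnb2 fell from 191 ± 31.7 and 178 ± 31.8 CPM in T-cM-titled and the WT-cM-titled organoids to 29.2 ± 8.05 CPM (SD, n = 3 each), which was 6.31-fold lower (log2 fold change -2.66, SE 0.22, adjusted p = 1.3e-05).

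Efnb1, the other B-type ephrin of villus cells, changed less. It had 119, 110 and 108 CPM in T-cM-titled organoids, 111, 109 and 97.2 CPM in WT-cM-titled organoids, and 62.5, 74.2 and 76.2 CPM in tumoroids. The groups did not overlap, although the difference was only 1.54-fold (log2 fold change -0.62, SE 0.11, adjusted p = 0.0014), between means of 71.0 ± 7.39 in tumoroids, 112 ± 5.64 in T-cM-titled and 106 ± 7.41 CPM in the WT-cM-titled organoids (SD, n = 3 each). The call depended on the scaling. In the deposited TPM, where the median gene was 0.52 higher in tumoroids on the log2 scale, Efnb1 differed by -0.10 (limma, adjusted p = 0.56).

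Efna1, an A-type ligand that binds EphA2, had 59.1, 84.0 and 96.3 CPM in T-cM-titled organoids, 59.6, 91.7 and 110 CPM in WT-cM-titled organoids, and 71.0, 80.1 and 104 CPM in tumoroids. The 3 groups covered the same range. The means were 85.1 ± 17.1 CPM in tumoroids, 79.8 ± 18.9 in T-cM-titled and 87.2 ± 25.6 in the WT-cM-titled organoids (SD, n = 3 each), and the log2 fold change was 0.03 (SE 0.22, adjusted p = 0.93). In TPM it was 0.57 higher (limma, adjusted p = 0.040), close to the 0.52 of the median gene on that scale.

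**Figure D2:**
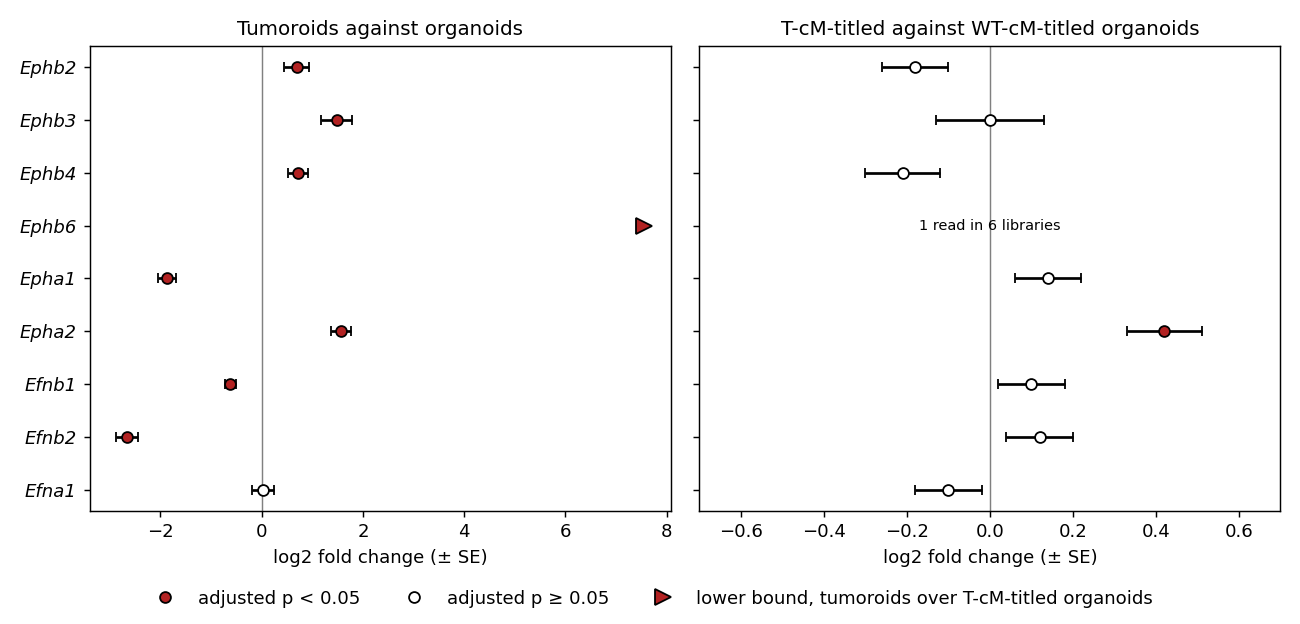
Log2 fold change ± SE of the 9 genes, for tumoroids against the mean of both organoid groups (left) and T-cM-titled against the WT-cM-titled organoids (right, on a narrower axis). Filled points passed at an adjusted p under 0.05, and the triangle is the lower bound for Ephb6 over T-cM-titled organoids (7.56). On the left the values run from -2.66 for Efnb2 to that bound, and on the right Epha2 is the only gene that passed, at 0.42.

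Levels of different genes were compared in TPM, which allows for gene length. In T-cM-titled organoids the highest of the 9 were Epha1 (107 ± 19.8 TPM) and Efna1 (107 ± 21.7), then Efnb1 (80.6 ± 7.19), Efnb2 (68.7 ± 9.09), Ephb4 (39.0 ± 8.95), Epha2 (33.7 ± 7.09), Ephb2 (16.7 ± 5.09), Ephb3 (5.62 ± 1.27) and Ephb6 at 0 (SD, n = 3). Neighbours in this order overlapped in their libraries for Epha1 and Efna1, Efna1 and Efnb1, and Ephb4 and Epha2, and did not overlap elsewhere. WT-cM-titled organoids had a like order, from Efna1 (114 ± 26.6 TPM) and Epha1 (96.1 ± 14.3) through Efnb1 (74.8 ± 9.97), Efnb2 (63.0 ± 9.33), Ephb4 (45.6 ± 15.3), Epha2 (24.8 ± 3.48) and Ephb2 (18.9 ± 6.74) to Ephb3 (5.78 ± 2.61) and Ephb6 (0.0133 ± 0.0231). There the neighbours that did not overlap were Ephb4 above Epha2, Ephb2 above Ephb3 and Ephb3 above Ephb6. In both groups the crypt receptors Ephb2 and Ephb3 were thus lower per length than either B-type ligand in every library.

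Tumoroids had another order. Efna1 (165 ± 38.4 TPM), Epha2 (125 ± 51.5) and Ephb4 (98.8 ± 18.4) led, each overlapping the next, and were followed by Efnb1 (72.8 ± 11.7), with Ephb4 above Efnb1 in every library. Below Efnb1, and not overlapping it, came Ephb2 (40.3 ± 11.8), Epha1 (40.2 ± 2.92), Ephb6 (31.7 ± 23.4), Ephb3 (22.5 ± 10.1) and Efnb2 (15.2 ± 5.03), whose neighbours overlapped (SD, n = 3). Efnb2 had gone from the fourth place to the last, and Ephb6 had passed Ephb3 in mean level.

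Summed over Ephb2, Ephb3, Ephb4 and Ephb6, the B-type receptors had 65.8 ± 18.8 TPM in the 6 organoid libraries (52.5 to 98.2) and 193 ± 56.0 TPM in tumoroids (148 to 256). The ligands Efnb1 and Efnb2 together had 144 ± 10.9 TPM in organoids (123 to 152) and 87.9 ± 15.2 TPM in tumoroids (71.2 to 101). Neither sum overlapped between organoids and tumoroids in TPM, a scale on which the median gene was 0.52 higher in tumoroids (log2). In CPM the receptor sum did overlap, with 144 to 260 CPM in organoids and 240 to 444 CPM in tumoroids, where replicate 2 was the lowest, and the ratio of the means was 1.90. The ratio of B-type receptor to ligand in TPM was 0.536, 0.346 and 0.352 in T-cM-titled organoids, 0.699, 0.396 and 0.432 in WT-cM-titled organoids, and 2.47, 1.46 and 2.80 in tumoroids. On this scale ligand exceeded receptor in every organoid library and receptor exceeded ligand in every tumoroid library. These sums describe genes chosen for this report and carry no test.

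Within pairs of related genes, some proportions shifted and others did not. Efnb1 was 1.00 to 1.52 times Efnb2 in organoids and 3.82 to 6.25 times in tumoroids. Ephb2 was 2.53 to 3.60 times Ephb3 in organoids and 1.5 to 2.10 times in tumoroids. The ratio of Ephb4 to Ephb2 was 2.11 to 2.83 in organoids and 2.21 to 2.98 in tumoroids, so that these ranges overlapped almost wholly.

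**Figure D3:**
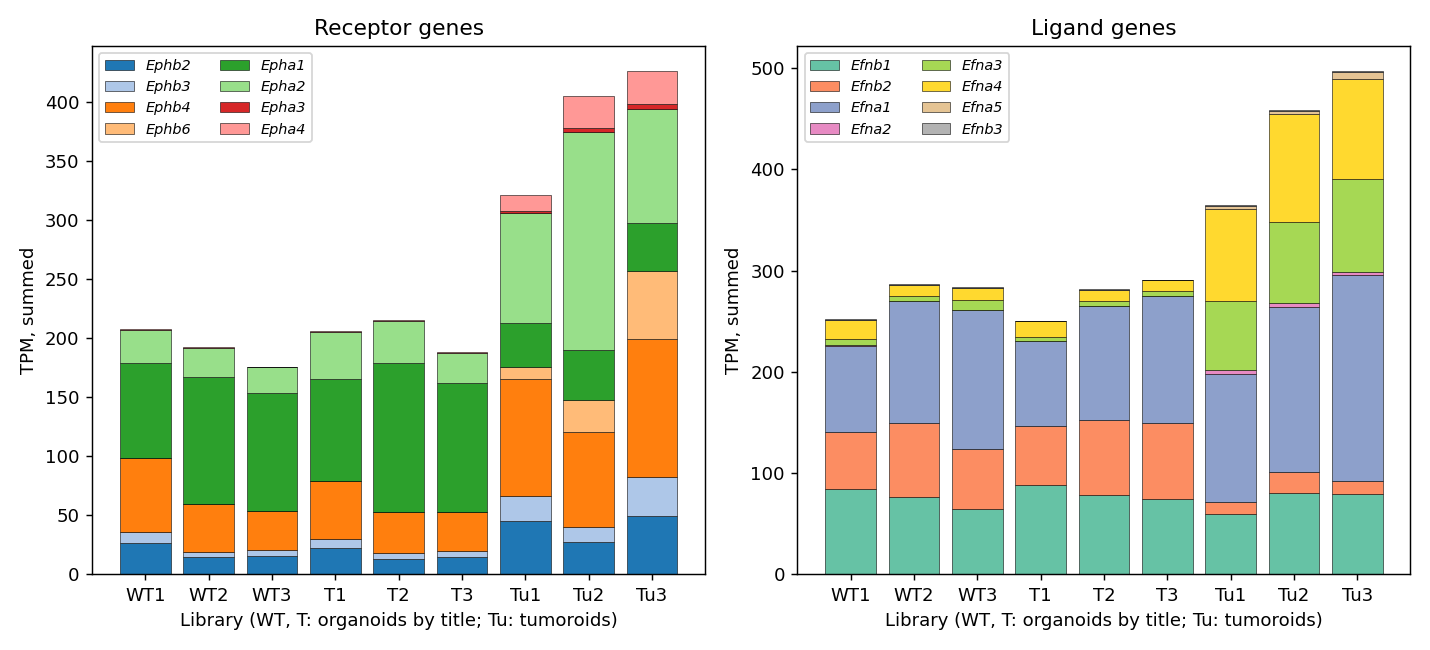
Summed TPM of the receptor genes (left) and ligand genes (right) that reached 1 TPM in any library, stacked by gene, for WT-cM-titled organoids (WT1 to WT3), T-cM-titled organoids (T1 to T3) and tumoroids (Tu1 to Tu3). Epha1 makes up 38.5% to 58.6% of the receptor sum in organoids and 9.57% to 11.5% in tumoroids, where Efna3 and Efna4 widen the ligand bars.

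Over all 14 receptor genes of the family, the sum was 176 to 215 TPM in organoids and 321 to 426 TPM in tumoroids, and 386 to 435 and 580 to 685 in CPM. Epha1 fell from a mean of 51.7% of this sum to 10.6%, while Epha2 went from 14.7% to 32.4%. The 8 ligand genes summed to 251 to 291 TPM in organoids and 365 to 497 TPM in tumoroids, but to 336 to 432 and 261 to 322 in CPM, so the direction of the ligand total turned with the scale. The 9 members together had 748 to 812 CPM in organoids and 701 to 820 CPM in tumoroids. Efnb2 made up 24.0% of the ligand sum in organoids and 3.46% in tumoroids, and Efna1 40.2% and 37.1%.

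Of the other 13 genes of the family, 7 passed the filter on low values. Of these, 6 were higher in tumoroids, all by more than 1 on the log2 scale, and none was lower, beside 29.6% of all genes higher (21% with the fold change threshold) and 20.8% lower. Efnb3 did not pass (log2 fold change 0.03, SE 0.52). Epha3, Efna2 and Efna5 passed the filter through tumoroids alone, so for these a difference was a condition of being tested. Epha4, Efna3 and Efna4 were measurable in organoids as well. Ephb1, Epha6 and Epha10 had no read in any library.

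Efna3, an A-type ligand, had 4.23, 4.07 and 5.52 CPM in T-cM-titled organoids, 5.83, 5.47 and 9.74 CPM in WT-cM-titled organoids, and 51.1, 52.0 and 62.5 CPM in tumoroids. Its log2 fold change was 3.28 (SE 0.21, adjusted p = 3.5e-06). Efna4, another A-type ligand, had 6.76 to 11.5 CPM in organoids and 44.1, 45.7 and 44.1 CPM in tumoroids (2.39, SE 0.18, adjusted p = 6.6e-06). Efna1, Efna3 and Efna4 lie side by side on chromosome 3, with 32.8 kb between Efna1 and Efna3, 10.4 kb between Efna3 and Efna4, and 0 other protein-coding genes in either gap. Organoids expressed all 3 genes of this cluster. Efna1 did not pass in tumoroids, while Efna3 and Efna4 rose.

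Epha4, a receptor that binds ephrins of both types, had 1.58 to 3.81 CPM in organoids and 33.3, 59.1 and 62.2 CPM in tumoroids, a log2 fold change of 4.43 (SE 0.29, adjusted p = 4.3e-06). The remaining 3 genes had few organoid reads. Efna5 had 3 reads in 6 organoid libraries and a mean of 5.35 CPM in tumoroids, a ratio of 194 (95% exact Poisson interval 66.3 to 939). Epha3 had 10 organoid reads and 4.95 CPM in tumoroids, and Efna2 22 organoid reads and 1.96 CPM. Their ratios were 53.8 (29.3 to 112) and 9.68 (6.39 to 15.4). The Epha3 reads lay mostly in organoid replicate 1, whose libraries held 5 (T-cM-titled) and 4 (WT-cM-titled). The remaining read was in replicate 3 of the WT-cM-titled group. The pooled interval for Epha3 leaves out this spread between replicates. With organoid replicate 1 left out, the log2 fold change of Epha3 was 8.49, against 5.68 in the main fit.

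**Figure D4:**
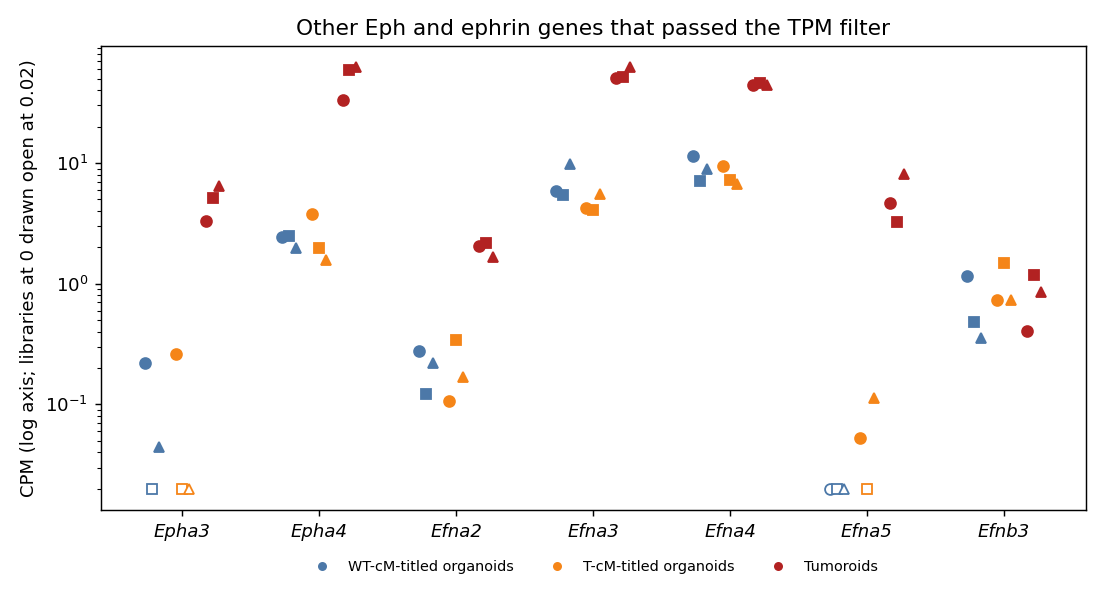
CPM on a log axis of the 7 other Eph and ephrin genes that reached 1 TPM in any library, with WT-cM-titled organoids in blue, T-cM-titled organoids in orange and tumoroids in red, and shapes for the replicate (circle 1, square 2, triangle 3). Libraries with no read are drawn open at 0.02; all genes but Efnb3 lie higher in every tumoroid than in any organoid library.

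Gene positions are given on GRCm38 (mm10) from release 21 of the Gencode annotation, in which all 9 are protein-coding. They are Ephb2 (ENSMUSG00000028664) at chr4:136647539-136835988 (minus strand), Epha2 (ENSMUSG00000006445) at chr4:141301240-141329384 (plus), Ephb3 (ENSMUSG00000005958) at chr16:21204755-21223305 (plus), Ephb4 (ENSMUSG00000029710) at chr5:137350109-137378669 (plus), Efnb1 (ENSMUSG00000031217) at chrX:99136130-99148991 (plus), Efnb2 (ENSMUSG00000001300) at chr8:8617434-8661242 (minus) and Efna1 (ENSMUSG00000027954) at chr3:89271733-89281142 (minus). Ephb6 (ENSMUSG00000029869) at chr6:41605482-41620509 (plus) and Epha1 (ENSMUSG00000029859) at chr6:42358487-42373268 (minus) lie 738 kb apart with 17 protein-coding genes between them, and changed in opposite directions in tumoroids.

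The 250 bases before the transcription start were read from RefSeq promoter windows (GRCm38.p6), in which all 9 genes were found, and searched on both strands for 3 short motif cores. These were CTTTGA for the TCF/LEF factors of the Wnt pathway, GGAATG for the TEAD factors that partner YAP, and GTGGGAA for the Notch factor RBPJ. The TEAD core was in 3 of the 9 windows (Epha1, Epha2 and Efnb2) and in 12.6% of 32851 promoters. The TCF/LEF core was in 1 (Epha2) and in 13.8% of promoters, and the RBPJ core in 0 and in 5.42%. Windows of the other 6 genes held no match. Of the 3 genes whose window held the TEAD core, Epha2 was higher and Epha1 and Efnb2 were lower in tumoroids. Such matches describe letters and not binding sites. The windows of the member that rose with 2 kinds of match, the member that fell most and the member gained from near 0 are printed 5′ to 3′ on the gene's strand, with matches in capitals.
Epha2, chr4:141300971-141301220, plus strand: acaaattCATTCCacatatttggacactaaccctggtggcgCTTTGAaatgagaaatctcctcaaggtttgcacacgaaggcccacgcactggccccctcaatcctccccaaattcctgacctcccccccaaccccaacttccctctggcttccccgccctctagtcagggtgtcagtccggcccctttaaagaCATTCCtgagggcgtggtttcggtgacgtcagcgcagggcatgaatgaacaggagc
Efnb2, chr8:8661243-8661492, minus strand: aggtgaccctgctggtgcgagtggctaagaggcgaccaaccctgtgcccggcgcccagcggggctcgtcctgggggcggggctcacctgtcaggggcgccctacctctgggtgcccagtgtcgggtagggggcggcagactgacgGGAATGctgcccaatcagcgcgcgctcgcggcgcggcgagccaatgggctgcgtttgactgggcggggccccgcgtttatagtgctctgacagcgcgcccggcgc
Ephb6, chr6:41605261-41605481, plus strand: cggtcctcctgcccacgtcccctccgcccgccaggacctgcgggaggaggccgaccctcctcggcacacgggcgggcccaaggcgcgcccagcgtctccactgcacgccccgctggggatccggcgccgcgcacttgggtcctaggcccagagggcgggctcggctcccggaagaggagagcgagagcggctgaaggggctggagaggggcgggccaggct
In the Epha2 window the capitals mark the TEAD core on the minus strand 243 and 56 bases before the start and the TCF/LEF core on the plus strand 209 bases before it. In that of Efnb2 they mark the TEAD core on the plus strand 105 bases before the start. The Ephb6 window, cut to 221 bases at the annotated first exon, holds no match. Over the full 250 bases its GC content of 76.8% was the highest of the 9 (lowest 54.4%). The median of all 32851 promoters was 52.4%, so all 9 windows lay above it.

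The organoid media comparison asked whether cM of tumoroids altered these genes in WT organoids. Of the 9 genes, 1 was higher in T-cM-titled than in WT-cM-titled organoids (Epha2) and 0 were lower, beside 5.03% and 5.05% of all genes at an adjusted p under 0.05 (edgeR with replicate number as a block). With an absolute log2 fold change above 1, 0 of the 9 passed in either direction, beside 0.673% and 0.432% of all genes. The median log2 fold change of the 9 was 0.00, as for all genes.

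The higher T-cM-titled value of Epha2 was found in 3 of 3 same-numbered pairs, by 0.50, 0.53 and 0.19 on the log2 CPM scale. Its log2 fold change was 0.42 (SE 0.09, adjusted p = 0.0031), or 1.33-fold. The groups nonetheless overlapped, since the lowest T-cM-titled library (50.6 CPM) was just below the highest WT-cM-titled one (50.9 CPM), and the call rested on the pairing. Without the block the adjusted p was 0.84, and without replicate 2 it was 0.39.

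Of the members that did not pass, Ephb2, Ephb4 and Efna1 had a lower T-cM-titled value in 3 of 3 pairs, and Epha1 and Efnb1 a higher one in 3 of 3. For Efna1 (-0.01, -0.13 and -0.20) and Efnb1 (0.10, 0.01 and 0.16), 1 pair was close to no difference. Epha1 differed by 0.14, 0.19 and 0.06. The share of all genes with pairs of 1 sign was not counted. Ephb2 differed by -0.22, -0.21 and -0.14 in the pairs (log2 fold change -0.18, SE 0.08, adjusted p = 0.19). Ephb4 differed by -0.32, -0.26 and -0.08 (-0.21, SE 0.09, adjusted p = 0.14). Ephb3 had pair differences of both signs (-0.28, 0.23 and 0.06) and a log2 fold change of 0.00 (SE 0.13). Among the ligands, Efnb1 had 0.10 (SE 0.08), Efnb2 0.12 (SE 0.08) and Efna1 -0.10 (SE 0.08), and Epha1 had 0.14 (SE 0.08), with adjusted p values from 0.29 to 0.55. A p above the threshold does not show that the media acted alike on these genes. Ephb6, with 1 read in 6 libraries, could not be compared.

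Among the other 13 genes, Efna3 was lower in T-cM-titled organoids, with differences of -0.46, -0.43 and -0.82 in the pairs (log2 fold change -0.57, SE 0.17, adjusted p = 0.025). The call was lost in 7 of 13 alternatives, among them without the block (adjusted p = 0.93), without replicate 2 (0.34) or 3 (0.44), with limma voom (0.079) and with DESeq2 (0.22). The organoid libraries enter both comparisons, and each organoid group was therefore also set against tumoroids alone. Epha2 was 1.36 higher on the log2 scale than in T-cM-titled and 1.78 higher than in WT-cM-titled organoids (adjusted p = 0.0015 and 0.00036). The corresponding values were 1.51 and 1.46 for Ephb3, -1.94 and -1.81 for Epha1 and -2.71 and -2.61 for Efnb2. Ephb2 passed against neither group (0.78 and 0.59, adjusted p = 0.059 and 0.15), and Ephb4 passed against T-cM-titled (0.84, adjusted p = 0.015) but not against WT-cM-titled organoids (0.61, adjusted p = 0.060).

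The libraries differed within the groups as well. In both media, organoids of replicate 1 had the highest Ephb2, Ephb3 and Ephb4 and the lowest Epha1, Efnb2 and Efna1 of their group. The ligand Efnb1 went the other way from Efnb2 and was highest in replicate 1 (119 and 111 CPM), as was Epha2 (71.8 and 50.9 CPM). The same 2 libraries had the highest sums of the 8 crypt and stem cell markers (337 and 461 CPM for T-cM-titled and WT-cM-titled, with 145 to 181 CPM in the other 4). Their sums of the 6 proliferation markers were also the highest (969 and 1130 CPM, with 501 to 678 CPM in the others). They had the lowest sums of the 7 enterocyte markers (15300 and 13700 CPM, with 22000 to 27900 CPM in the others). None of these markers was at 0 in the organoid groups. Whether cell composition accounts for the receptor levels of replicate 1 was not tested.

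Among tumoroids, replicate 2 had the lowest Ephb2, Ephb3 and Ephb4 and the highest Epha2 and Efnb2. Its 5 Paneth cell markers summed to 207 CPM, beside 1970 and 1600 CPM in replicates 1 and 3, and its crypt markers to 968 CPM, beside 1130 and 1300 CPM. Its proliferation markers were the lowest (694 CPM, beside 1090 and 800 CPM) and its enterocyte markers the highest (211 CPM, beside 81.7 and 31.4 CPM). The part of these markers in the receptor and ligand levels was not tested.

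The same marker lists were read in the tumoroid comparison. Of the 8 crypt and stem cell markers, 7 were higher in tumoroids, beside 29.6% of all genes. Among them were Lgr5 (log2 fold change 6.47) and Sox9 (2.23), and the sum of the 8 was 968 to 1300 CPM against 145 to 461 CPM in organoids. Olfm4, a stem cell gene under Notch control, had a log2 fold change of -2.59 without passing. All 7 enterocyte markers were lower, beside 20.8% of all genes, with sums of 31.4 to 211 CPM against 13700 to 27900 CPM. Of the 5 Paneth cell markers, Mmp7 was higher and Lyz1 and Defa24 were lower, beside the same shares. Of the 6 proliferation markers, Mcm2 and Mcm6 were higher, near the share of all genes, and 4 did not pass. Of these 4, Mki67 (-0.21), Pcna (-0.11) and Ccnb1 (-0.40) lay below 0 and Top2a (0.34) above it. The lowest tumoroid was below the highest organoid library for Mcm2 (90.7 against 94.0 CPM) and Mcm6 (144 against 159 CPM). The part of these shifts in the changes of the B-type receptors and ligands was not tested. Between the organoid groups, 2 of the 8 crypt markers were lower in T-cM-titled libraries (Smoc2, -0.61, and Ascl2, -0.66), beside 5.05% of all genes. So were 3 of the 5 Paneth cell markers (Ang4, -0.49, Mmp7, -0.35, and Itln1, -0.26) and 2 of the 6 proliferation markers (Top2a, -0.37, and Mki67, -0.30). Of the 7 enterocyte markers, Alpi was higher (0.75) and Fabp1 (-0.61) and Lct (-0.48) were lower. As for Epha2, these calls were lost in the edgeR fit without the replicate block. The part of these markers in the values of the receptors was not tested.

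A list of 30 genes that act with or downstream of Eph receptors and ephrins held 28 tested genes, of which 4 were higher in tumoroids, 4 were lower and 20 did not pass, beside 29.6% and 20.8% of all genes. The 4 higher genes were Ptpn13, Tiam1, Fyn and Abl2. Ptpn13, a phosphatase that binds B-type ephrins, had 0 to 0.407 CPM in organoids and 16.6, 29.0 and 145 CPM in tumoroids, and was tested only because of its tumoroid values. The same holds for Fyn, a Src-type kinase with 0.814 to 1.69 CPM in organoids and 3.58, 6.73 and 0.687 CPM in tumoroids (log2 fold change 1.51, SE 0.56, adjusted p = 0.046). Its tumoroid replicate 3 lay below every organoid library. Tiam1, an activator of Rac, had a log2 fold change of 2.19 (SE 0.33, adjusted p = 0.00043). Abl2, a cytoplasmic tyrosine kinase, had 0.67 (SE 0.23, adjusted p = 0.035) and was also the 1 of the 28 that was higher in T-cM-titled organoids (0.31, SE 0.10, adjusted p = 0.042), beside 5.03% of all genes.

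The 4 lower genes were Kalrn, Yes1, Cdc42 and Rac1. Kalrn, an exchange factor downstream of EphB receptors, had -1.61 (SE 0.24, adjusted p = 0.00036). The Src-type kinase Yes1 had -0.92, and the small GTPases Cdc42 and Rac1 had -0.72 and -0.50. Adam10, the protease that cuts ephrins and their receptors at the cell surface, had 0.45 (SE 0.28, adjusted p = 0.21), and Cdh1, the E-cadherin gene, 0.06 (SE 0.15, adjusted p = 0.76). The list's median log2 fold change was -0.08, against 0.16 over all genes.

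The genes whose profile over the 9 libraries was nearest to each main member were found among 9351 genes with a mean of at least 10 CPM, by the root mean square difference of centred log2 CPM. For Ephb3 they were Tnfrsf1b (0.117), Rtn4rl1 (0.168) and Myo5c (0.219), where Ephb3's own deviation from its mean was 0.791. For Efnb2, with 1.28, they were Bpnt1 (0.114), Nat8f4 (0.125) and Mfsd7b (0.126). For Ephb2, with 0.483, they were Hddc2 (0.150), Smpd3 (0.155) and Hnrnpa1 (0.160). Efnb1 moved little (0.310) and had Xpo7 (0.0593), Vps35 (0.0665) and Kpna1 (0.0704) beside it.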

How the data were processed

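Per the labels and the study's methods, the authors aligned paired-end reads of stranded polyA libraries to mm10 with STAR and used release 13 of the Gencode annotation. They deposited raw counts per gene and a table of TPM, a unit in which counts are divided by gene length and each library is scaled to one total. The counting tool, its strand setting, the gene length and how TPM was computed are not given in the sources used here. Libraries were grouped by title.

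Genes that reached a TPM of 1 in any library (16208 of 50600) were normalised by TMM and tested with edgeR's quasi-likelihood method (edgeR 4.0.16, R 4.3.3, limma 3.58.1, DESeq2 1.42.0), in its form before version 4, with Benjamini-Hochberg adjustment over all genes tested. The organoid comparison used 6 libraries with replicate number as a block. The study's own model has a sample term for these libraries, and deviations from the group means correlated in every same-numbered pair (Pearson's r across genes 0.546, 0.338 and 0.547). The tumoroid comparison used 9 libraries without a block, since tumoroid numbers are shared only as numbers. The methods speak of lines from different mice without listing the libraries, so p-values measure the spread between these samples, and both organoid libraries of a number may share a mouse.

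The 9 genes, all lists and the naming rule were chosen with earlier results of these data known. All 9 genes were named, with up to 5 genes of smallest p per direction from the other family genes and the 30-gene list, and up to 2 per marker list where a value is given. Adam10, Cdh1, Efnb3, the overlapping genes Zyx and Zan, and cell type markers beyond 2 per list were chosen after their values were seen. Likeness was taken on log2 CPM (prior count 2). Alternatives were limma voom, DESeq2, the newer edgeR form, RLE or upper-quartile factors, the TPM filter left out or replaced by edgeR's own, log2(TPM + 1) or log2(TPM + 0.1) with limma, the block removed or added, each replicate left out, each organoid group as control, same-numbered organoid libraries summed, and a fold change threshold.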

Additional observations from a re-analysis of the deposited data

How the results depend on the processing

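Ephb3, Ephb6, Epha1, Epha2 and Efnb2 kept their direction and call in the tumoroid comparison under all 19 alternatives. The call of Ephb2 was lost in 9 of 19 (adjusted p from 0.0037 to 0.18 over all), including limma voom (0.063), RLE factors (0.053) and either organoid group alone as control (0.15 for WT-cM-titled, 0.059 for T-cM-titled), and that of Ephb4 in 4 of 19 (0.0011 to 0.069). In TPM with limma, Efnb1 lost its call and Efna1 gained one. Of the 9 genes, 8 passed in the tumoroid comparison and 5 passed with the fold change threshold, which also took all genes called from 8165 to 5363. Those higher went from 5 to 3 with WT-cM-titled organoids as control, with same-numbered organoid libraries summed and with the fold change threshold, and ranged from 3 to 5 when a replicate was left out. The cause was not tested.

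Between the organoid groups, the single call (Epha2) went to 0 under both TPM scalings, with the fold change threshold and without the replicate block, and ranged from 0 to 1 when a replicate was left out. The calls among all genes went from 1634 to 581 with limma voom, 794 with DESeq2, 1048 with the newer edgeR form, 179 with the fold change threshold and 0 under both TPM scalings and without the replicate block. They ranged from 7 to 2897 when a replicate was left out (7 without replicate 2, 439 without replicate 3, 2897 without replicate 1). Adding the replicate block to the tumoroid comparison left 8 of the 9 genes called; the correlation of same-numbered tumoroid and organoid libraries was between -0.0705 and 0.196. The median log2 fold change of all genes in tumoroids was 0.16, against 0.11 with RLE and 0.27 with upper-quartile factors, and 0.52 or 0.64 in TPM. Depth limits the organoid levels of Ephb6, Efna5, Epha3 and Efna2, which rest on few reads. Among the tested Eph and ephrin genes, no called result changed sign, and the signs of other genes were not compared.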
